A study of Homo sapiens with 12 samples.

Results

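The NDUF genes make most of respiratory complex I, and their transcripts were described here in human liver cancer cells with and without METTL5. The members were the rows of the deposited gene table whose name starts with NDUF followed by A, AB, AF, B, C, S or V and a number, which gave 46 of 58884 genes. Of these, 38 carry subunit names and 8 are the assembly factors NDUFAF1 to NDUFAF8. METTL5 is an enzyme that methylates an adenosine of 18S ribosomal RNA. RNA sequencing compared METTL5 knockout cells (KO), treated with a guide RNA against METTL5, with untreated wild-type cells (WT) in a pair of hepatocellular carcinoma lines. HCC-LM3 is a line selected for metastatic capacity, and Huh-7 is a line that keeps many hepatocyte traits. The groups were HCC-LM3 METTL5 KO, HCC-LM3 WT, Huh-7 METTL5 KO and Huh-7 WT, with 3 libraries each. No control guide is named for the WT cells, and whether a KO culture was 1 clone or a pool is not given in the sources used here.

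METTL5 itself had 0 counts in all 6 KO libraries. It had 268, 327.01 and 325.03 counts in HCC-LM3 WT and 237, 258.02 and 169.17 in Huh-7 WT.

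Complex I is the entry point of the mitochondrial respiratory chain. It takes electrons from NADH through a flavin and a chain of iron-sulfur clusters to ubiquinone and pumps protons across the inner membrane. Its matrix arm holds the nuclear-encoded core subunits that carry the flavin and the clusters, its membrane arm is built around core subunits encoded in mitochondrial DNA, and accessory subunits surround both arms. The NDUFAF proteins help to build the complex and are not part of the finished enzyme. In hepatocytes, complex I reoxidizes NADH from the citric acid cycle and fatty acid oxidation. NDUFA4 keeps its NDUF name but is now assigned to cytochrome c oxidase, and NDUFAB1 is the mitochondrial acyl carrier protein, which sits in both arms.

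The libraries held 17495280 to 26415554 counts, and all 46 members passed the filter on low counts, with at least 12 counts in every library. Levels are given as TMM-scaled CPM or, where genes are compared with each other, as the deposited TPM, which is per length. The TMM factors were 0.491 to 0.510 in Huh-7 KO and 1.06 to 1.10 in Huh-7 WT, so the Huh-7 contrast was also read under 6 other scalings: DESeq2 size factors, library totals alone, offsets for GC content and gene length together or for either alone, and the deposited TPM. Among the counts of nuclear protein-coding genes, genes under 1000 bases took 36.8% to 37.5% in Huh-7 KO, against 19.1% to 20.8% in Huh-7 WT. In HCC-LM3 the same genes took 14.8% to 15.6% in KO and 14.1% to 16.2% in WT. HCC-LM3 WT replicate 1 stood apart from the other HCC-LM3 WT libraries, with a chi-square per degree of freedom of 35.3 and 29.02 against them, compared with 4.03 between those libraries. Of 10 hepatocyte markers, all reached 1 CPM in Huh-7, whereas 9 stayed below it in HCC-LM3 and HNF4A alone reached it. Their summed level was 20220 to 20850 CPM in Huh-7 KO and 14170 to 15180 CPM in Huh-7 WT, and 32.6 to 39.9 CPM in HCC-LM3 KO and 26.8 to 30.9 CPM in HCC-LM3 WT. In Huh-7 the summed endothelial markers were at 5.71 to 6.04 CPM in KO and 13.2 to 13.9 CPM in WT, the fibroblast markers at 6.11 to 7.11 and 10.8 to 12.4 CPM, and the leukocyte markers at 20.6 to 22.2 and 21.7 to 25.9 CPM. In HCC-LM3 the leukocyte markers were each below 1 CPM, the endothelial markers summed to 3.26 to 3.71 CPM in KO and 2.06 to 2.72 CPM in WT, and the fibroblast markers to 35.0 to 37.2 and 39.8 to 43.9 CPM. The part of these markers in the results was not tested. Whether replicates were grown separately is not stated, so the p-values rest on a spread between libraries that may be purely technical.

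Promoter sequences of 40 members were found in the RefSeq table, each from 250 bases before to 50 bases after the gene start, on GRCh38.p14. NDUFB5, NDUFB9, NDUFC2, NDUFS5 and NDUFAF6 were among those not matched. The motifs searched on both strands were GCGCANGCGC for NRF1, CCGGAAG for the ETS factors such as GABPA, AAGATGGCG for YY1, GGGCGG for the SP factors, and CCAAT. The NRF1 letters were in 17.5% of the member promoters (7 of 40) and in 6.285% of all 27305 promoters. The YY1 letters were in 12.5% of the member promoters (5 of 40) and in 1.849% of all promoters. The ETS letters were in 15.0% and 10.668%, the SP letters in 55.0% and 44.585%, and CCAAT in 27.5% and 35.697%. These are matches of letters in a window and say nothing of binding. The 4 stretches printed here, each 5′ to 3′ with any of these motifs in capitals, belong to members on which the results below turn: NDUFA4 had the largest increase in Huh-7 KO with TMM, NDUFS1 fell there, NDUFS8 differed strongly between the WT lines, and NDUFB4, chosen after its letters were seen, holds the NRF1 letters more than once. They lie at chr7:10940257-10940403 on the minus strand (RefSeq symbol COXFA4), chr2:206159584-206159613 on the minus strand, chr11:68030431-68030626 on the plus strand and chr3:120596086-120596308 on the plus strand.
NDUFA4: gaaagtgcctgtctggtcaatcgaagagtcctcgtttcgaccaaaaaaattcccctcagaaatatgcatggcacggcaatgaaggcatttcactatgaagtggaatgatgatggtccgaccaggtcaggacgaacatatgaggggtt
NDUFS1: aggctggggccaCTTCCGGcggaactgcgg
NDUFS8: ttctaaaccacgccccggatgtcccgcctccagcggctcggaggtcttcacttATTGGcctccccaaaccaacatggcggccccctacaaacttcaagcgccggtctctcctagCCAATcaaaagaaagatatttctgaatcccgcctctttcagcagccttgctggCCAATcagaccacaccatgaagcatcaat
NDUFB4: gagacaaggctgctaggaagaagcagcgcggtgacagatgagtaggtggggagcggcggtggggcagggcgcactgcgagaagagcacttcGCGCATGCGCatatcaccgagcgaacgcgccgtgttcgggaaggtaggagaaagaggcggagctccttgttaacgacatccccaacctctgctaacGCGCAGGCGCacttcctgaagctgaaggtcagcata
The NDUFA4 stretch held none of the motifs, the NDUFS8 stretch held CCAAT 3 times and the NDUFB4 stretch held the NRF1 letters in 2 places. These stretches are the longest parts before the RefSeq gene start that lie outside protein-coding exons. For NDUFS1 under 100 such bases remained, so 30 bases centred on its ETS match were printed. Its ETS letters are thus there by the choice of the stretch. The gene coordinates given with the results below come from another annotation, and their starts differ for some members. By those coordinates the NDUFS8 stretch runs past the gene start at 68030617. The NDUFS1 stretch crosses the gene start at 206159603, and its ETS letters lie inside the gene. The NDUFS1 window also held the SP letters once, outside the stretch.

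In HCC-LM3, loss of METTL5 went with small differences in a few NDUF transcripts. The core subunits NDUFS7, NDUFS8 and NDUFV1 were higher in KO, and NDUFA5, NDUFB3 and the assembly factor NDUFAF7 were lower. In all, 5 members were called higher and 3 lower at an edgeR quasi-likelihood adjusted p (Benjamini-Hochberg over 16537 genes) under 0.05, and 38 were not called. Across all genes tested, 14.0% were called higher and 12.9% lower, or 26.8% in either direction. The log2 fold changes of the 38 members without a call ran from -0.43 for NDUFAF8 to 0.27 for NDUFS6. The median log2 fold change was -0.026 over the members and 0.0011 over all genes. The split of calls moved with the scaling. With offsets for GC content alone, 2 members were called higher and 2 lower, against 7.52% and 7.07% of all genes. With offsets for GC content and length the numbers were 4 and 6, against 9.53% and 8.63%. Library totals gave 3 and 12, against 7.25% and 20.7%, and deposited TPM also gave 3 and 12, against 5.67% and 14.6%. For HCC-LM3 the shares of all genes with DESeq2 size factors and with offsets for length alone were not counted. No member was called in the same direction under all 7 scalings, whereas 3.37% of all genes were called higher and 3.62% lower under all of them. Without HCC-LM3 WT replicate 1, 15 members were called higher and 3 lower, at a median of 0.060 over the members and 0.0 over all genes. Leaving out HCC-LM3 WT replicate 2, HCC-LM3 WT replicate 3 or HCC-LM3 KO replicate 3 each left 2 higher and 2 lower. Leaving out HCC-LM3 KO replicate 2 left 3 higher and 2 lower. The shares of all genes called without these libraries were not counted, so these numbers cannot be read as particular to the members.

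**Figure D1:**
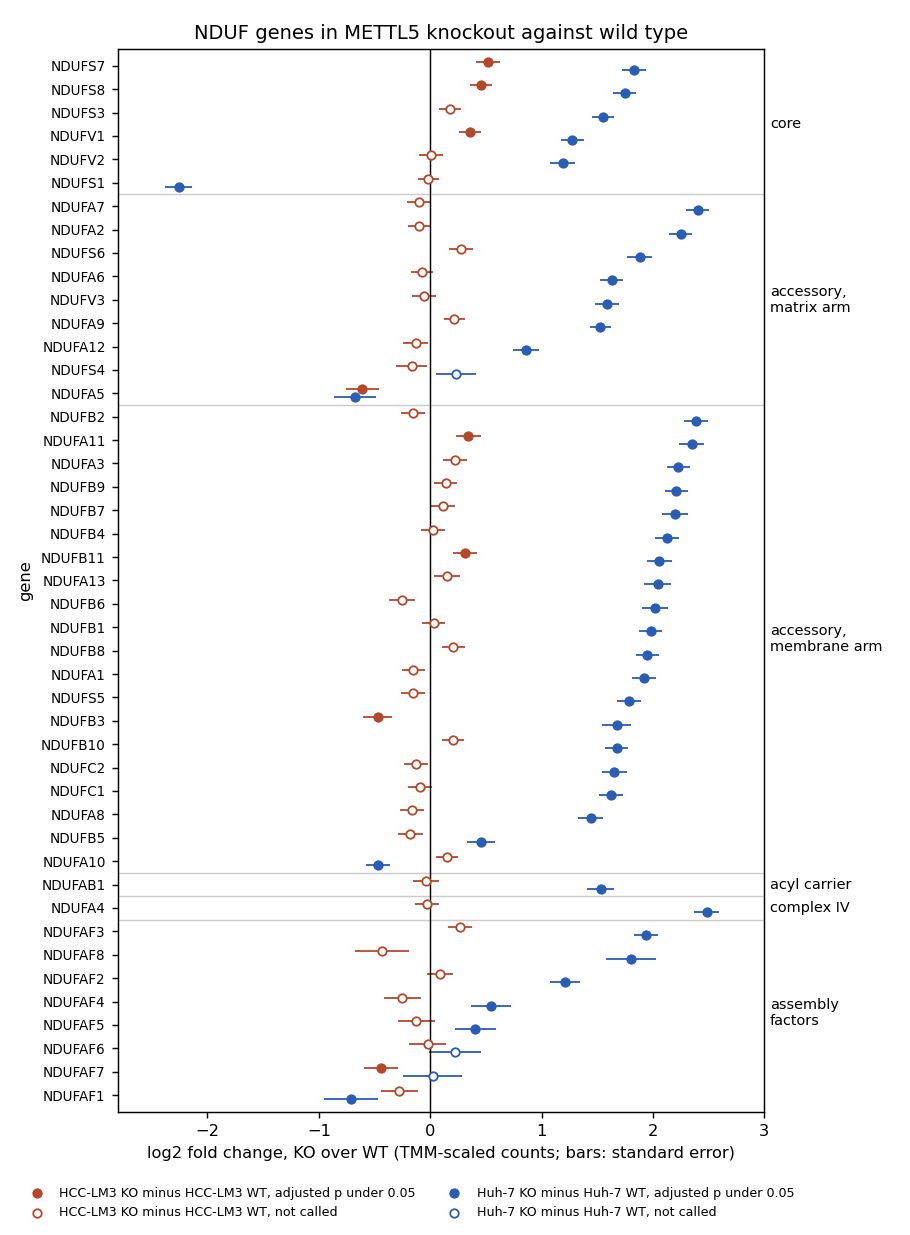
Log2 fold change (KO over WT) of 45 NDUF members, HCC-LM3 KO against WT and Huh-7 KO against WT, edgeR with TMM scaling. Bars show the SE from the fit over all 12 libraries, 3 a group. The HCC-LM3 values lie near 0 while most Huh-7 values are positive and NDUFS1 lies at -2.26; under deposited TPM the Huh-7 median over members is 0.037.

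NDUFS7 and NDUFS8, neighbouring core subunits that carry the last iron-sulfur clusters before ubiquinone, showed the clearest increases in HCC-LM3 KO. NDUFS7 (chr19:1383527-1395589 on GRCh38, plus strand) had 67.1, 71.2 and 77.6 CPM in HCC-LM3 KO and 59.2, 46.6 and 44.96 CPM in HCC-LM3 WT. Every KO library was above every WT library, and the log2 fold change was 0.52 (SE 0.107, edgeR adjusted p = 0.000526). Of the other scalings, tools, filters and left-out libraries, offsets for GC content alone ended the call, at an edgeR adjusted p of 0.0607. NDUFS8 (chr11:68030617-68036644, plus strand) had 115, 119.6 and 125 CPM in HCC-LM3 KO and 102, 82.5 and 78.1 CPM in HCC-LM3 WT. Again the groups did not overlap, WT replicate 1 was the closest to KO, and the log2 fold change was 0.46 (SE 0.102, edgeR adjusted p = 0.00124). It was not called with offsets for GC content alone. Without HCC-LM3 WT replicate 1 the log2 fold changes were 0.65 for NDUFS7 and 0.57 for NDUFS8.

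NDUFV1, the subunit that binds NADH and the flavin, had 151, 159 and 168 CPM in HCC-LM3 KO and 144, 116 and 113 CPM in HCC-LM3 WT. KO replicate 1 and WT replicate 1 lay close together without overlapping, and the log2 fold change was 0.36 (SE 0.101, edgeR adjusted p = 0.00839). This call ended with offsets for GC content, with or without length, and when HCC-LM3 WT replicate 2, HCC-LM3 WT replicate 3 or HCC-LM3 KO replicate 3 was left out. Its partner NDUFV2, which holds an iron-sulfur cluster beside the flavin, had 63.3, 58.6 and 69.3 CPM in KO and 71.8, 60.3 and 58.4 CPM in WT, with overlapping groups and a log2 fold change of 0.006. NDUFS1, the largest core subunit, had 48.5, 47.01 and 45.9 CPM in HCC-LM3 KO and 42.4, 50.7 and 49.9 CPM in HCC-LM3 WT. The KO values lay inside the WT range, and the log2 fold change was -0.018 (SE 0.0958, edgeR adjusted p = 0.945). NDUFS3, of the ubiquinone module, had 104, 108 and 115 CPM in KO and 114, 86.6 and 88.5 CPM in WT. The groups overlapped, and it was not called, at a log2 fold change of 0.18. Over the 7 scalings, 0 to 3 of the 6 core subunits described were called higher and 0 lower. All genes stood at 14.0% and 12.9% with TMM. Where these shares were counted, they ran from 5.67% to 14.0% higher and 7.07% to 20.7% lower.

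Among the accessory subunits, NDUFA11 and NDUFB11 of the membrane arm were the other members called higher in HCC-LM3 KO; both are named after their values were seen. NDUFA11 had 141, 146 and 156 CPM in KO and 140.5, 103 and 106 CPM in WT. WT replicate 1 lay just under KO replicate 1, and the log2 fold change was 0.34 (SE 0.109, edgeR adjusted p = 0.0178). NDUFB11 had 250.5, 274 and 294 CPM in KO and 269.9, 200.0 and 189 CPM in WT. Here WT replicate 1 was above KO replicate 1, so the groups overlapped, and the log2 fold change was 0.31 (SE 0.109, edgeR adjusted p = 0.0308). Both calls ended with library totals, with deposited TPM, with offsets for GC content (alone or with length), and when HCC-LM3 WT replicate 2, HCC-LM3 WT replicate 3, HCC-LM3 KO replicate 2 or HCC-LM3 KO replicate 3 was left out. That of NDUFB11 also ended when each line was fitted alone.

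NDUFA5, an accessory subunit of the matrix arm, was lower in HCC-LM3 KO. It had 7.65, 8.62 and 9.29 CPM in KO and 11.5, 13.8 and 13.7 CPM in WT. All KO libraries were below all WT libraries, and the log2 fold change was -0.61 (SE 0.147, edgeR adjusted p = 0.00236). NDUFB3, a small membrane-arm subunit, had 7.8, 7.97 and 8.54 CPM in KO and 12.1, 11.2 and 10.4 CPM in WT. The groups did not overlap, and the log2 fold change was -0.47 (SE 0.128, edgeR adjusted p = 0.00598). NDUFA5 was not called with offsets for GC content (alone or with length), and NDUFB3 was not called with offsets for GC content alone. NDUFA4, the cytochrome c oxidase subunit, had 112, 113 and 126 CPM in KO and 141, 104 and 114 CPM in WT, with overlapping groups and a log2 fold change of -0.029. Of the 9 matrix-arm accessory subunits 0 were called higher and 1 lower, and of the 20 membrane-arm ones 2 were called higher and 1 lower. The shares of all genes with TMM were 14.0% and 12.9%. Over the 7 scalings the lower counts reached 5 with deposited TPM and 8 with library totals. Of all genes, 14.6% and 20.7% were called lower under these scalings.

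Of the 8 assembly factors, NDUFAF7 was the one called in HCC-LM3 KO, against 26.8% of all genes called in either direction. NDUFAF7, a protein arginine methyltransferase, had 9.82, 8.52 and 8.75 CPM in KO and 10.1, 13.6 and 13.1 CPM in WT. Every KO library lay below every WT library, and the log2 fold change was -0.44 (SE 0.152, edgeR adjusted p = 0.0288). The call ended with offsets for GC content (alone or with length), with deposited TPM, and when HCC-LM3 WT replicate 2, HCC-LM3 WT replicate 3, HCC-LM3 KO replicate 2 or HCC-LM3 KO replicate 3 was left out. NDUFAF3, which works with NDUFAF4 on the early ubiquinone module, had 89.1, 96.5 and 109 CPM in KO and 93.9, 78.1 and 73.5 CPM in WT, with overlapping groups and a log2 fold change of 0.26 (SE 0.106, edgeR adjusted p = 0.0612). NDUFAF1, which acts on the membrane arm, had 5.81, 4.55 and 5.97 CPM in KO and 6.31, 6.84 and 6.69 CPM in WT. These groups did not overlap, yet the log2 fold change of -0.28 (SE 0.164, edgeR adjusted p = 0.224) did not pass. NDUFAF8, the partner of NDUFAF5, had 3.38, 2.69 and 3.73 CPM in KO and 5.96, 3.84 and 3.54 CPM in WT, with KO replicate 3 inside the WT range and a log2 fold change of -0.43 (SE 0.244, edgeR adjusted p = 0.214).

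The other assembly factors had overlapping groups in HCC-LM3 and were not called. NDUFAF2, which is related to NDUFA12, had 21.9, 19.5 and 23.9 CPM in KO and 22.3, 18.5 and 20.6 CPM in WT. NDUFAF4 had 4.83, 4.62 and 5.92 CPM in KO and 6.72, 5.95 and 5.65 CPM in WT. NDUFAF5, which hydroxylates an arginine of NDUFS7, had 3.97, 3.97 and 4.87 CPM in KO and 5.07, 4.83 and 4.06 CPM in WT. Their log2 fold changes were 0.09, -0.25 and -0.12 in that order. NDUFAF6, a phytoene synthase-like protein, had 8.9, 7.21 and 9.17 CPM in KO and 8.4, 8.54 and 8.8 CPM in WT, a log2 fold change of -0.024. Over all 46 members, 4 had every KO library above every WT library in CPM, 5 had every KO library below and 37 overlapped. In deposited TPM these numbers were 4, 20 and 22, and of all genes tested 11.0% had every KO library above and 23.0% below on that scale. Across all genes, 38.7% had groups that did not overlap in CPM.

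In Huh-7, METTL5 KO went with larger differences, and their size and the split of calls over the family depended on the scaling. The median log2 fold change over the members was positive under all 7 scalings, at 0.037 to 2.10. That of the assembly factors ran from -0.89 to 0.93. With TMM, 39 members were called higher and 4 lower in Huh-7 KO. Across all genes tested, 31.7% were called higher and 43.2% lower with TMM, or 75.0% in either direction. The log2 fold changes of the 39 members called higher ran from 0.41 for NDUFAF5 to 2.48 for NDUFA4. The median log2 fold change was 1.66 over the members and -0.30 over all genes. With library totals alone the medians were 0.55 and -1.40, and 32 members were called higher and 11 lower, against 12.1% and 65.3% of all genes. With deposited TPM the medians were 0.037 and -0.68, and 19 members were called higher and 16 lower, against 5.18% and 69.1%. DESeq2 size factors gave medians of 2.10 and 0.00, with 41 members higher and 1 lower, against 39.4% and 35.4%. Offsets for GC content and length gave 24 higher and 13 lower, against 18.3% and 42.7%. Offsets for length alone gave 23 and 8, against 26.3% and 41.4%, and offsets for GC content alone gave 43 and 2, against 25.8% and 43.1%. In bulk RNA from a whole culture, fewer cells with a transcript and less of it per cell cannot be told apart.

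Under all 7 scalings, 9 members were called higher in Huh-7 KO and 1, NDUFS1, was called lower. Of all genes, 3.08% were called higher and 22.1% lower under all of them. The 9 were NDUFA2, NDUFA4, NDUFA7, NDUFA11, NDUFB2, NDUFB4, NDUFB6, NDUFB9 and NDUFAF3. Of these 8 carry subunit names, among them NDUFA4 of cytochrome c oxidase, and 1 is an assembly factor. The lowest log2 fold change of the 9 over the scalings was 0.30, for NDUFA7, and the highest was 3.74, for NDUFA4.

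**Figure D2:**
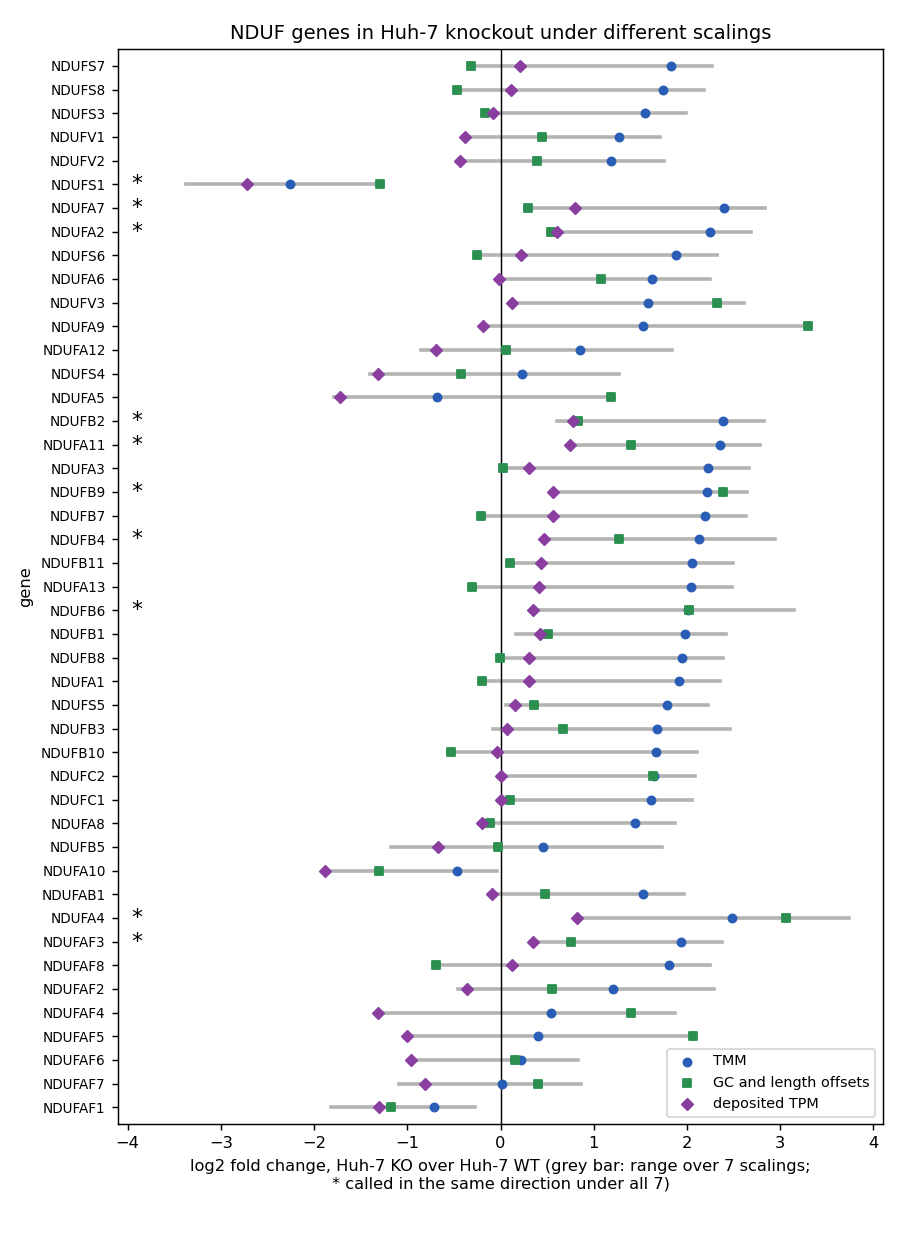
Log2 fold change of 45 NDUF members in Huh-7 KO over Huh-7 WT, 1 row a gene, with grey bars showing the range over the 7 scalings. Markers show TMM, offsets for GC content and length, and deposited TPM, and an asterisk marks a call in the same direction under all 7. The values of NDUFS1 are negative throughout (-3.37 to -1.30), 9 members are called higher throughout, and the others change sign or lose the call under at least 1 scaling.

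NDUFS1 (chr2:206114817-206159603, minus strand), the core subunit of the NADH module that passes electrons through several iron-sulfur clusters, stood apart from the other subunits. It had 8.48, 10.5 and 8.57 CPM in Huh-7 KO and 41.3, 46.4 and 43.7 CPM in Huh-7 WT. In deposited TPM the values were 0.7, 0.98 and 0.54 in Huh-7 KO and 8.6, 12.9 and 10.2 in Huh-7 WT. All KO libraries were far below all WT libraries on both scales, and the log2 fold change was -2.26 (SE 0.122, edgeR adjusted p = 1.88e-17) with TMM and -3.37 to -1.30 over the scalings. The gene overlaps EEF1B2 and AC007383.3 on the opposite strand, and the strand setting of the counting is not given in the sources used here. Beside this fall, NDUFV1 and NDUFV2 of the same module were higher with TMM. NDUFV1 had 2135, 2265 and 2170 CPM in Huh-7 KO and 902, 925 and 885 CPM in Huh-7 WT. The groups were far apart, with a log2 fold change of 1.28 (SE 0.102, edgeR adjusted p = 2.98e-13). In deposited TPM the order turned, at 525, 549 and 557 in KO and 691, 735 and 701 in WT, and the log2 fold change was -0.38. NDUFV2 had 155, 142 and 146 CPM in Huh-7 KO and 66.5, 74.9 and 53.1 CPM in Huh-7 WT. It did not overlap either, and its log2 fold change was 1.19 (SE 0.108, edgeR adjusted p = 1.41e-11) with TMM, -0.22 with offsets for length and -0.44 in deposited TPM.

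**Figure D3:**
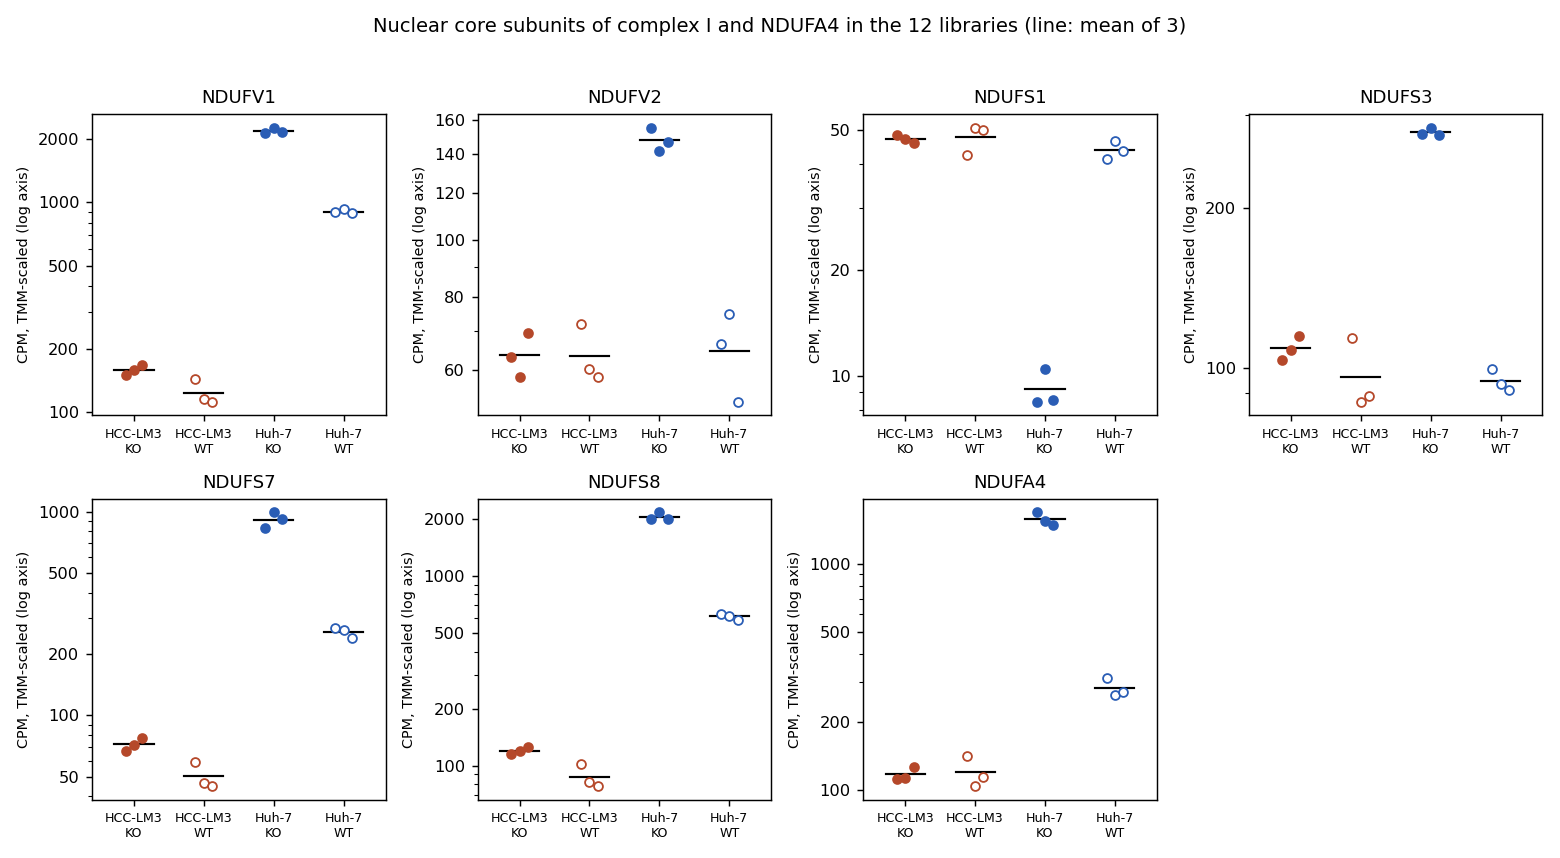
TMM-scaled CPM (log axis) of 6 nuclear core subunits and NDUFA4 in each of the 12 libraries, KO left of WT in each line, the line marking the mean of 3. NDUFS1 is the panel in which Huh-7 KO lies lowest, at 8.48 to 10.5 CPM, and in the others Huh-7 KO lies highest on this scale; in deposited TPM NDUFV1, NDUFV2 and NDUFS3 had negative log2 fold changes in Huh-7.

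NDUFS7, NDUFS8 and NDUFS3, core subunits on the way to ubiquinone, were higher in Huh-7 KO with TMM but not under every scaling. NDUFS7 had 827, 993 and 920.5 CPM in Huh-7 KO and 267, 263 and 239 CPM in Huh-7 WT. NDUFS8 had 1992, 2169 and 2005 CPM in Huh-7 KO and 632, 619 and 585 CPM in Huh-7 WT. Both were without overlap, at log2 fold changes of 1.83 (SE 0.107, edgeR adjusted p = 1.33e-16) and 1.75 (SE 0.103, edgeR adjusted p = 1.75e-16). With offsets for GC content and length they were -0.31 and -0.47. NDUFS3 had 276, 284 and 274 CPM in Huh-7 KO and 99.7, 93.6 and 90.9 CPM in Huh-7 WT. KO was again above WT in every library, with a log2 fold change of 1.55 (SE 0.1, edgeR adjusted p = 1.55e-15), and its range over the scalings was -0.17 to 1.99. Of the 6 core subunits described 5 were called higher and 1 lower with TMM, against 31.7% and 43.2% of all genes. Over the scalings 2 to 5 of these subunits were called higher and 1 to 4 lower, against 5.18% to 39.4% and 35.4% to 69.1% of all genes.

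Among the genes called under all 7 scalings, NDUFA4 (chr7:10931951-10940256, minus strand) had the largest increase with TMM. It had 1694, 1551 and 1485 CPM in Huh-7 KO and 313, 263 and 271 CPM in Huh-7 WT. In deposited TPM it had 286, 257 and 261 in KO and 164, 145 and 144 in WT. The groups were far apart on both scales, and the log2 fold change was 2.48 (SE 0.113, edgeR adjusted p = 4.68e-19). NDUFA7 (chr19:8308768-8321396, minus strand), a matrix-arm accessory subunit, had 446, 469 and 421 CPM in Huh-7 KO and 89.4, 88.1 and 75.1 CPM in Huh-7 WT. Its deposited TPM were 397, 415 and 395 in KO and 242, 250.01 and 202 in WT. Neither scale showed an overlap, and the log2 fold change was 2.40 (SE 0.103, edgeR adjusted p = 1.61e-19), with 0.30 to 2.84 over the scalings. NDUFA7 overlaps the ribosomal protein gene RPS28 on the opposite strand. NDUFB2 (chr7:140690777-140722790, plus strand), of the membrane arm, had 612, 604 and 573 CPM in Huh-7 KO and 117, 117 and 109 CPM in Huh-7 WT. In deposited TPM it had 837, 829 and 830.4 in KO and 485, 504 and 467 in WT. KO was above WT in every library, and the log2 fold change was 2.39 (SE 0.108, edgeR adjusted p = 4.62e-19), with 0.60 to 2.82 over the scalings. NDUFB2 overlaps BRAF and NDUFB2-AS1 on the opposite strand.

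The other members called higher under all 7 scalings are named after their values were seen. NDUFA2, a thioredoxin-fold subunit of the matrix arm, had 331, 320.1 and 319.8 TPM in Huh-7 KO and 207, 228 and 199.97 TPM in Huh-7 WT. NDUFA11 had 2003, 2179 and 2092 TPM in Huh-7 KO and 1210, 1393 and 1145 TPM in Huh-7 WT. The KO libraries of both were above the WT libraries, with log2 fold changes over the scalings of 0.55 to 2.69 and 0.75 to 2.79. NDUFB4 had 597, 585 and 564 TPM in Huh-7 KO and 446, 394 and 420.3 TPM in Huh-7 WT. NDUFB6 had 21.4, 20.8 and 22.6 TPM in Huh-7 KO and 17.3, 16.6 and 16.4 TPM in Huh-7 WT. NDUFB9, which binds the acyl carrier protein in the membrane arm, had 853, 828 and 828 TPM in Huh-7 KO and 569, 587 and 536 TPM in Huh-7 WT. These 3 membrane-arm subunits did not overlap between the groups either, with log2 fold changes of 0.47 to 2.95 for NDUFB4, 0.35 to 3.15 for NDUFB6 and 0.57 to 2.65 for NDUFB9.

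The members called lower with TMM beside NDUFS1 were NDUFAF1, NDUFA5 and NDUFA10. NDUFAF1 had 2.37, 1.51 and 2.09 CPM in Huh-7 KO and 3.29, 3.55 and 2.99 CPM in Huh-7 WT. No KO library reached the WT range, and the log2 fold change was -0.71 (SE 0.241, edgeR adjusted p = 0.00872). This call ended with DESeq2 size factors or the DESeq2 Wald test, with offsets for GC content alone and when Huh-7 KO replicate 2 was left out. NDUFA5 had 6.11, 3.61 and 4.07 CPM in Huh-7 KO and 7.21, 8.41 and 6.63 CPM in Huh-7 WT. The groups lay close without overlap, at a log2 fold change of -0.68 (SE 0.19, edgeR adjusted p = 0.00188), which turned to 1.19 with offsets for GC content and length and was not called with DESeq2 size factors, the Wald test or offsets for length. NDUFA10, a membrane-arm subunit that faces the matrix and is related to nucleoside kinases, had 42.3, 34.1 and 45.6 CPM in Huh-7 KO and 55.0, 61.3 and 52.9 CPM in Huh-7 WT. KO was below WT in every library, and the log2 fold change was -0.47 (SE 0.105, edgeR adjusted p = 0.00016), with -1.88 to -0.035 over the scalings and no call with DESeq2 size factors or the Wald test.

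NDUFAF3 was the assembly factor called higher in Huh-7 KO under all 7 scalings. It had 616, 639.9 and 608 CPM in Huh-7 KO and 181, 142 and 165 CPM in Huh-7 WT. There was no overlap, and the log2 fold change was 1.93 (SE 0.108, edgeR adjusted p = 4.31e-17), with 0.35 to 2.37 over the scalings. It overlaps DALRD3 and MIR191 on the opposite strand. NDUFAF8 had 29.9, 29.8 and 27.1 CPM in Huh-7 KO and 5.71, 7.71 and 11.8 CPM in Huh-7 WT. NDUFAF2 had 23.7, 21.1 and 20.3 CPM in Huh-7 KO and 8.31, 10.2 and 9.72 CPM in Huh-7 WT. Both were higher in KO without overlap, at log2 fold changes of 1.80 (SE 0.225, edgeR adjusted p = 1.14e-06) and 1.21 (SE 0.133, edgeR adjusted p = 6.76e-10). With offsets for GC content and length NDUFAF8 was called lower, at -0.69, and with offsets for length it was not called, at -0.039. NDUFAF2 was called lower with offsets for length, at -0.45, and in deposited TPM, at -0.36. NDUFAF4 had 11.6, 7.11 and 10.3 CPM in Huh-7 KO and 6.18, 7.53 and 6.33 CPM in Huh-7 WT, with KO replicate 2 inside the WT range. Its log2 fold change was 0.54 (SE 0.18, edgeR adjusted p = 0.00725), and the call ended with offsets for length and when Huh-7 KO replicate 1 was left out. NDUFAF4 was called lower with library totals, at -0.57, and in deposited TPM, at -1.32.

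NDUFAF5 had 9.66, 7.34 and 7.03 CPM in Huh-7 KO and 6, 6.57 and 5.62 CPM in Huh-7 WT. KO was narrowly above WT in every library, with a log2 fold change of 0.41 (SE 0.182, edgeR adjusted p = 0.0436). That call ended without the filter on low counts, with limma-voom, and when HCC-LM3 KO replicate 3, Huh-7 KO replicate 1, Huh-7 WT replicate 1 or Huh-7 WT replicate 3 was left out. NDUFAF5 was called lower with library totals, at -0.71, and in deposited TPM, at -1.002. NDUFAF6 had 4.04, 3.96 and 1.98 CPM in Huh-7 KO and 2.38, 2.98 and 3.29 CPM in Huh-7 WT. NDUFAF7 had 2.27, 1.4 and 2.31 CPM in Huh-7 KO and 2.09, 2.23 and 1.57 CPM in Huh-7 WT. Both overlapped between the groups and were not called, at log2 fold changes of 0.22 (SE 0.235, edgeR adjusted p = 0.399) and 0.021 (SE 0.261, edgeR adjusted p = 0.964). Over the 7 scalings NDUFAF6 was called higher in 2 and lower in 2, and NDUFAF7 higher in 1 and lower in 2. The remaining member without a call with TMM was NDUFS4, a late-added matrix-arm subunit, at 0.23 (SE 0.176, edgeR adjusted p = 0.235). NDUFS4 was called higher in 2 scalings and lower in 4, at -1.39 to 1.27. Of the 8 assembly factors 5 were called higher and 1 lower with TMM, against 31.7% and 43.2% of all genes. Over the scalings 1 to 7 of these factors were called higher and 0 to 6 lower, against 5.18% to 39.4% and 35.4% to 69.1% of all genes. Their median log2 fold change was 0.48 with TMM and ran from -0.89 to 0.93 over the scalings.

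By position in the complex, 7 of 9 matrix-arm accessory subunits were called higher and 1 lower in Huh-7 KO with TMM, at a median log2 fold change of 1.58, and over the scalings 3 to 9 were called higher and 0 to 4 lower. Of the 20 membrane-arm accessory subunits 19 were called higher and 1 lower, at a median of 1.96, and over the scalings 9 to 19 were called higher and 0 to 5 lower. The shares of all genes with TMM were 31.7% higher and 43.2% lower, and 5.18% to 39.4% and 35.4% to 69.1% over the scalings. NDUFAB1 was at 1.53 (SE 0.118, edgeR adjusted p = 2.69e-13) with TMM and at -0.096 to 1.97 over the scalings. In CPM 38 members had every KO library above every WT library, 4 had every KO library below and 4 overlapped. In deposited TPM these numbers were 17, 16 and 13, and of all genes tested 5.46% had every KO library above and 72.4% below on that scale. Over all genes, 76.5% had groups that did not overlap in CPM. Summed over the 38 subunit names, the level was 15730 ± 227 TPM in Huh-7 KO and 12310 ± 860.6 TPM in Huh-7 WT (SD, n = 3 each). The sum over the 8 assembly factors was 343.3 ± 4.194 TPM in Huh-7 KO and 301.6 ± 19.66 TPM in Huh-7 WT. NDUFAF3 made up most of it, at 289 ± 4 TPM in KO and 228 ± 25.9 TPM in WT, and in TPM 1 assembly factor was called higher and 6 lower, at a median log2 fold change of -0.89. In HCC-LM3 the subunit sum was 9208 ± 254 TPM in KO and 9760 ± 357.4 TPM in WT, and the assembly factor sum was 295.4 ± 12.03 TPM in KO and 316.3 ± 2.065 TPM in WT.

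Gene length moved with the Huh-7 result. The members were short, with a median length of 863 bases against 2745 bases over all genes tested, and the assembly factors were longer than the subunits, at 1904 and 804 bases. The median log2 fold change in Huh-7 was 1.80 over the 27 members under 1000 bases and 1.42 over all genes of that class. Between 1000 and 2000 bases it was 0.22 over 5 members and 0.73 over all genes. Between 2000 and 4000 bases it was 1.46 over 10 members and -0.27 over all genes. From 4000 bases it was 0.97 over 4 members and -1.72 over all genes. The medians of the members under 1000 bases and from 2000 bases were above those of all genes of like length, and the median between 1000 and 2000 bases was below. Across the 46 members, which share the same 12 libraries, Spearman's rho of the Huh-7 log2 fold change with TMM was -0.393 with length, 0.492 with GC content and 0.721 with the TPM in WT. With offsets for GC content and length these values were 0.441, -0.426 and -0.063, so the relations depended on the scaling. The part of gene length and GC content in the Huh-7 differences was not tested.

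**Figure D4:**
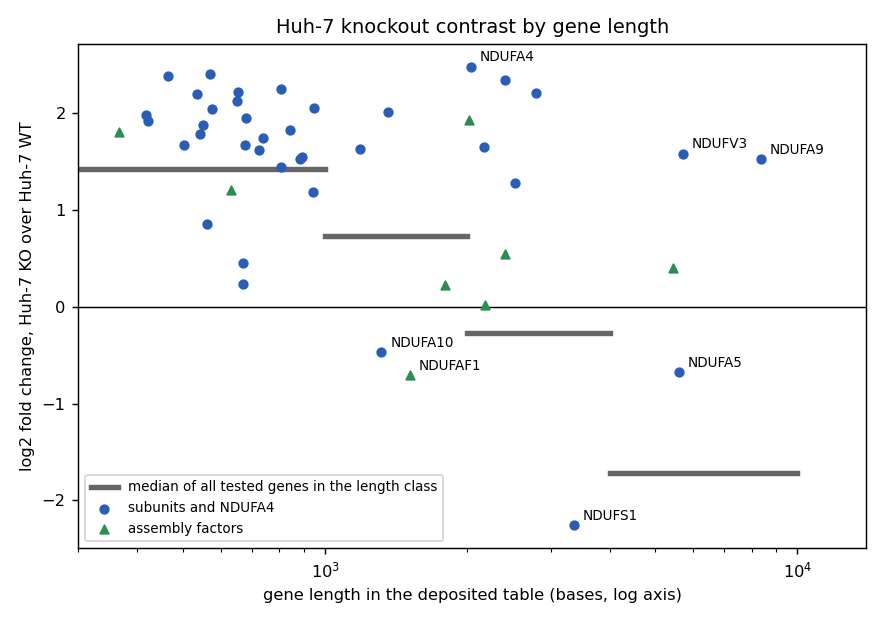
Log2 fold change in Huh-7 KO over Huh-7 WT (TMM) against gene length in bases (log axis) for 45 NDUF members, with the median of all tested genes in each of 4 length classes. The medians of all genes go down from 1.42 to -1.72 with length, and the members longer than 2000 bases lie mostly above them; with offsets for length the median of the members is 0.30.

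The effect of METTL5 KO differed between the lines for most members. The difference, HCC-LM3 effect minus Huh-7 effect, was called higher for 2 members and lower for 38, and 6 were not called. Over all genes, 37.7% were called higher and 23.9% lower, or 61.6% in either direction. Its median was -1.62 over the members and 0.39 over all genes. The split over the members was 9 higher and 22 lower with offsets for GC content and length, against 35.4% and 14.7% of all genes. It was 8 and 23 with offsets for length alone, against 34.8% and 17.6%, and 11 and 20 with deposited TPM, against 58.3% and 5.73%. The values furthest below 0 were -2.54 (SE 0.15, edgeR adjusted p = 1.05e-15) for NDUFB2, -2.51 (SE 0.154) for NDUFA4 and -2.50 (SE 0.146) for NDUFA7. NDUFS1 was furthest above 0, at 2.24 (SE 0.156, edgeR adjusted p = 4.43e-14) and 1.52 to 3.19 over the scalings. NDUFA10 was the other member called higher, at 0.62 (SE 0.144, edgeR adjusted p = 0.000371). Under all 7 scalings 13 members were called lower and 1, NDUFS1, was called higher, against 3.02% and 18.4% of all genes. NDUFB3 was called in opposite directions in the lines with TMM. It had 37.9, 37.6 and 31.1 CPM in Huh-7 KO and 11.4, 12.4 and 9.52 CPM in Huh-7 WT, without overlap, which adds to its HCC-LM3 values above. The difference of its effects was -2.15 (SE 0.182, edgeR adjusted p = 3.63e-12), and its Huh-7 log2 fold change of 1.68 (SE 0.13) became -0.082 with offsets for length.

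More members were called between the WT lines than between KO and WT in HCC-LM3, and the same held over all genes, at 82.8% and 26.8%. NDUFV1, NDUFS8 and NDUFS7, core subunits along the path of electrons, were lower in HCC-LM3 WT than in Huh-7 WT, and NDUFAF7, NDUFAF6 and NDUFS6 were higher. In all, 12 members were called higher and 24 lower in HCC-LM3 WT, with 10 not called. Over all genes, 41.8% were called higher and 41.0% lower, or 82.8% in either direction. The median log2 difference was -0.33 over the members and 0.03 over all genes. The split became 20 higher and 18 lower with library totals, against 51.0% and 32.8% of all genes, and 27 higher and 15 lower with deposited TPM, against 55.3% and 27.6%. Under all 7 scalings 10 members were called higher and 14 lower, against 34.0% and 26.6%. The 10 higher were NDUFA1, NDUFA5, NDUFA8, NDUFB5, NDUFS4, NDUFS6, NDUFAF1, NDUFAF2, NDUFAF6 and NDUFAF7. The 14 lower were NDUFV1, NDUFS7, NDUFS8, NDUFA2, NDUFA3, NDUFA4, NDUFA7, NDUFA11, NDUFA13, NDUFB2, NDUFB4, NDUFB8, NDUFC1 and NDUFAF3.

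From the CPM given above, NDUFV1 was at 113 to 144 CPM in HCC-LM3 WT and at 885 to 925 CPM in Huh-7 WT. The lines were far apart, and the log2 difference was -2.87 (SE 0.108, edgeR adjusted p = 2.1e-22). Its mean TPM was 174 ± 3.44 in HCC-LM3 WT and 709 ± 23.2 in Huh-7 WT (SD, n = 3 each). NDUFS8 had a mean of 279 ± 11.2 TPM in HCC-LM3 WT and 1191 ± 55.8 TPM in Huh-7 WT (SD, n = 3 each). Its log2 difference was -2.81 (SE 0.108, edgeR adjusted p = 4.27e-22), and every HCC-LM3 library was below every Huh-7 library. NDUFS7 had a mean of 144 ± 6.34 TPM in HCC-LM3 WT and 460.5 ± 31.8 TPM in Huh-7 WT (SD, n = 3 each). It too was without overlap, at a log2 difference of -2.35 (SE 0.111, edgeR adjusted p = 1.24e-19). Over the scalings the ranges were -2.92 to -2.02 for NDUFV1, -2.87 to -1.82 for NDUFS8 and -2.41 to -1.30 for NDUFS7. The other core subunits described were not called, at log2 differences of 0.12 for NDUFS1, 0.023 for NDUFS3 and -0.031 for NDUFV2.

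NDUFS6, a zinc-binding subunit of the matrix arm, had 246, 178 and 179 CPM in HCC-LM3 WT and 93.7, 94.2 and 80.2 CPM in Huh-7 WT. HCC-LM3 was higher in every library, at a log2 difference of 1.17 (SE 0.11, edgeR adjusted p = 1.25e-11). In the KO libraries NDUFS6 had 238, 236 and 256 CPM in HCC-LM3 and 317, 355 and 315 CPM in Huh-7. NDUFAF7 averaged 13.01 ± 2.71 TPM in HCC-LM3 WT and 1.34 ± 0.57 TPM in Huh-7 WT (SD, n = 3 each). NDUFAF6 averaged 16.3 ± 1.82 TPM in HCC-LM3 WT and 3.06 ± 0.577 TPM in Huh-7 WT (SD, n = 3 each). Neither overlapped between the WT lines, and the log2 differences, HCC-LM3 WT minus Huh-7 WT, were 2.63 (SE 0.182, edgeR adjusted p = 5.27e-15) and 1.58 (SE 0.185, edgeR adjusted p = 1.93e-09). Both genes overlap others on the opposite strand, among them CEBPZ and PRKD3 for NDUFAF7 and CCNE2 and TP53INP1 for NDUFAF6.

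**Figure D5:**
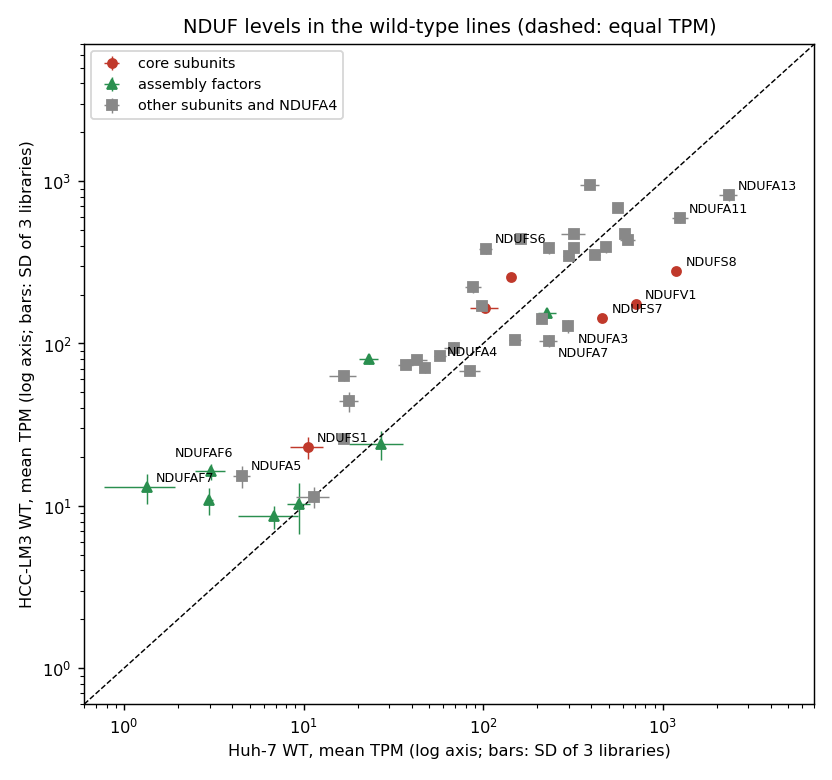
Mean TPM (log axes) of 45 NDUF members in HCC-LM3 WT (vertical) and Huh-7 WT (horizontal), bars showing the SD of 3 libraries and the dashed line equal TPM. NDUFV1, NDUFS7 and NDUFS8 lie below the line and NDUFS6, NDUFAF6 and NDUFAF7 above it; these 6 were called in the same direction under all 7 scalings.

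Within each WT line the per-length levels spanned the family in a like order, with a Spearman's rho of 0.90 between the lines over the 46 members. In HCC-LM3 WT the highest were NDUFS5 at 945 ± 23.6 TPM and NDUFA13, also known as GRIM-19, at 821 ± 71.9 TPM (SD, n = 3 each), and the lowest was NDUFAF5 at 8.59 ± 1.45 TPM. In Huh-7 WT the highest were NDUFA13 at 2331 ± 264 TPM and NDUFA11 at 1249 ± 128 TPM, and the lowest was NDUFAF7. Among the core subunits described, NDUFS1 was the lowest per length in both WT lines, at 22.96 ± 3.4 TPM in HCC-LM3 WT and 10.6 ± 2.19 TPM in Huh-7 WT.

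The other genes of complex I and its neighbours were described from lists of their own. Of the 15 other complex I assembly factors, 1 was called higher and 4 lower in HCC-LM3 KO with TMM, against 14.0% and 12.9% of all genes. The counts were 0 to 2 higher and 2 to 8 lower over the scalings. Where counted, the shares of all genes ran from 5.67% to 14.0% higher and 7.07% to 20.7% lower. In Huh-7 KO 11 were called higher and 3 lower with TMM, against 31.7% and 43.2% of all genes. Over the scalings 2 to 11 of them were called higher and 3 to 12 lower, against 5.18% to 39.4% and 35.4% to 69.1% of all genes. NUBPL, which brings iron-sulfur clusters to complex I, was lower in Huh-7 KO under all 7 scalings, at -1.42 (SE 0.204, edgeR adjusted p = 1.62e-07). AIFM1, which is needed for the import of respiratory chain proteins, was also lower in Huh-7 KO under all of them, at -1.31 (SE 0.115, edgeR adjusted p = 3.01e-12). DMAC1 and COA1, membrane-arm assembly factors, were higher in Huh-7 KO under all of them, at 2.01 (SE 0.12, edgeR adjusted p = 2.15e-16) and 1.88 (SE 0.0946, edgeR adjusted p = 3.85e-18). In HCC-LM3 KO, COA1 was lower under all 7 scalings, at -0.38 (SE 0.093, edgeR adjusted p = 0.00255), as was LYRM2 at -0.75 (SE 0.183, edgeR adjusted p = 0.00249). ECSIT, which binds NDUFAF1 during assembly, was higher in HCC-LM3 KO at 0.43 (SE 0.0958, edgeR adjusted p = 0.00115), in 6 of 7 scalings.

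Of the 7 complex I mRNAs encoded in mitochondrial DNA, which build the core of the membrane arm, 4 were called higher and 0 lower in HCC-LM3 KO. The shares of all genes were 14.0% and 12.9%. Over the scalings 2 to 6 of these mRNAs were called higher and 0 lower. Where counted, the shares of all genes ran from 5.67% to 14.0% higher and 7.07% to 20.7% lower. MT-ND1 was at 0.49 (SE 0.11, edgeR adjusted p = 0.00111) and MT-ND2 at 0.41 (SE 0.0975, edgeR adjusted p = 0.00209), and both were called higher in HCC-LM3 KO under all 7 scalings. In Huh-7 KO 3 were called higher and 3 lower with TMM, against 31.7% and 43.2% of all genes. Over the scalings 0 to 6 of them were called higher and 1 to 6 lower, against 5.18% to 39.4% and 35.4% to 69.1% of all genes. MT-ND5 was lower in Huh-7 KO under all 7, at -1.45 (SE 0.108, edgeR adjusted p = 6.4e-14), and MT-ND3 was higher in 6 of 7, at 1.77 (SE 0.111, edgeR adjusted p = 6.6e-16).

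For the other respiratory complexes, HCC-LM3 KO had 1 higher and 1 lower of 4 complex II genes, 2 and 1 of 9 in complex III, 0 and 0 of 10 in complex IV and 1 and 2 of 15 in ATP synthase, against 14.0% and 12.9% of all genes. Over the scalings the higher counts in HCC-LM3 KO were 1 throughout, 0 to 2, 0 to 2 and 0 to 3 in these complexes, and the lower counts 1 to 2, 1 to 5, 0 to 4 and 0 to 5. Where counted, the shares of all genes ran from 5.67% to 14.0% higher and 7.07% to 20.7% lower. SDHD of complex II was lower in HCC-LM3 KO under all 7 scalings, at -0.55 (SE 0.111, edgeR adjusted p = 0.000397). UQCRC1 of complex III was higher in HCC-LM3 KO at 0.42 (SE 0.0993, edgeR adjusted p = 0.00203), in 6 of 7 scalings, and UQCRC2 was lower at -0.35 (SE 0.0892, edgeR adjusted p = 0.00397), in 5 of 7. In Huh-7 KO the counts with TMM were 3 and 0 in complex II, 7 and 1 in complex III, 10 and 0 in complex IV and 13 and 2 in ATP synthase. The shares of all genes there were 31.7% higher and 43.2% lower, and 5.18% to 39.4% and 35.4% to 69.1% over the scalings. Over the scalings the higher counts in Huh-7 KO ran from 0 to 4, 5 to 9, 6 to 10 and 5 to 13 in these complexes, and the lower counts from 0 to 3, 0 to 3, 0 to 2 and 0 to 4. UQCRQ, COX6A1, COX7B and ATP5MG were higher in Huh-7 KO under all 7 scalings, at 2.36 (SE 0.11, edgeR adjusted p = 7.04e-19), 2.42 (SE 0.109, edgeR adjusted p = 4.16e-19), 2.39 (SE 0.105, edgeR adjusted p = 2.41e-19) and 2.25 (SE 0.108, edgeR adjusted p = 1.4e-18).

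Of 10 regulators of mitochondrial gene expression, 1 was called higher and 7 lower in Huh-7 KO with TMM, against 31.7% and 43.2% of all genes. Over the scalings 0 to 2 regulators were called higher and 5 to 9 lower, against 5.18% to 39.4% and 35.4% to 69.1% of all genes. PPARGC1B, a coactivator of respiratory genes, was at -2.89 (SE 0.234, edgeR adjusted p = 4.81e-13) in Huh-7 KO and ran from -3.99 to -0.75 over the scalings. TFAM, which packages mitochondrial DNA and takes part in its transcription, was at -2.43 (SE 0.195, edgeR adjusted p = 3.6e-13) and ran from -3.54 to -0.74. Both were called lower in Huh-7 KO under all 7 scalings, as were 22.1% of all genes. ESRRA, a nuclear receptor that PGC-1 coactivators work with, was at 1.34 (SE 0.103, edgeR adjusted p = 1.2e-13) in Huh-7 KO, called higher under 6 scalings and lower under 1. In HCC-LM3 KO 2 regulators were called higher and 4 lower with TMM, against 14.0% and 12.9% of all genes. The counts were 0 to 2 higher and 2 to 4 lower over the scalings. Where counted, the shares of all genes ran from 5.67% to 14.0% higher and 7.07% to 20.7% lower. TFAM was lower in HCC-LM3 KO at -0.59 (SE 0.129, edgeR adjusted p = 0.00103), in 4 of 7 scalings, and GABPA, the ETS factor named above, was lower at -0.68 (SE 0.178, edgeR adjusted p = 0.00438), in 5 of 7.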

How the data were processed

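RNA sequencing of 12 libraries was analysed, 3 in each of HCC-LM3 KO, HCC-LM3 WT, Huh-7 KO and Huh-7 WT, grouped by the sample labels. The authors deposited 1 table of expected counts and TPM for 58884 genes, per the file headers; 7.49% to 13.3% of the expected counts in a library are not whole, and the deposited TPM sum to 977632 to 998831. The submitters' processing notes name Bowtie 0.12.2 together with mm8 and mm9, which are mouse builds although the identifiers are human. Neither the counting tool nor its strand setting nor a human build is given in the sources used here. Unused per-sample columns numbered 0.

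Expected counts were rounded, and edgeR 4.0.16 under R 4.3.3 was used for testing: filterByExpr over 4 groups (16537 genes), TMM, a robust quasi-likelihood fit with 1 mean per group (8 residual degrees of freedom), two-sided tests and Benjamini-Hochberg adjustment over all genes, with calls at an adjusted p under 0.05. Standard errors came from the F statistic. The fit was also run on simulated counts, with as many genes raised as lowered and no trend with length or GC content. It thus cannot speak to the scaling of the Huh-7 contrast. The TPM alternative used limma 3.58.1 on log2(TPM + 1), which understates changes of low genes. Other alternatives were DESeq2 1.42.0, limma-voom, other filters, offsets from splines of 5 degrees of freedom in GC content and length, a replicate block, each line alone, stricter thresholds and leaving out each library. For a single gene, the smallest p of an exact permutation test at this group size is 0.1.

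Coordinates, GC content (16480 tested genes) and overlaps came from GENCODE 29 on GRCh38, which held 99.536% of the identifiers; lengths were the deposited ones. Of the members, 29 overlap another gene, 25 of them on the opposite strand. The 59 annotated pseudogenes of 19 members held at most 1.52% of a member's counts, and NDUFC2-KCTD14 held 0.998% to 6.40% of those of NDUFC2, so how shared reads were divided is uncertain for these genes.

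Values in every library were given for METTL5, core subunits, the assembly factors, NDUFA4, the 3 largest calls per direction in each contrast and calls against the majority; other lists named at most 2 called genes per direction. The values of 1 member are not reported here; it remains in the counts, sums and medians over members. The members and lists were chosen with earlier results of these data known. Equal replicate numbers did not pair the libraries: the correlations of same-numbered libraries ran from -0.1057 to 0.0827.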

Additional observations from a re-analysis of the deposited data

Results flagged for a closer look

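NDUFB3 was the member called in opposite directions in the 2 lines with TMM, with a called difference of the effects; other members had opposite signs without a call in HCC-LM3. Its log2 fold change was -0.47 (SE 0.128) in HCC-LM3 KO against WT and 1.68 (SE 0.13) in Huh-7 KO against WT, and the difference of the effects was -2.15 (SE 0.182, edgeR adjusted p = 3.63e-12), HCC-LM3 minus Huh-7. All 3 KO libraries lay on one side of all 3 WT libraries in each line in CPM. In deposited TPM, NDUFB3 had 49.2, 50.7 and 51.2 in HCC-LM3 KO and 75.3, 84.2 and 79.1 in HCC-LM3 WT, without overlap, and 47.2, 47.2 and 40.8 in Huh-7 KO and 42.4, 49.1 and 37.4 in Huh-7 WT, with overlap. NDUFB3 overlaps FAM126B on the opposite strand. The cause was not tested.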

How the results depend on the processing

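The direction of the Huh-7 median over the members was positive under every alternative, at 2.10 with DESeq2 size factors and with the DESeq2 Wald test, 1.54 without the filter on low counts, 1.40 with offsets for GC content, 0.55 with library totals, 0.33 with offsets for GC content and length, 0.30 with offsets for length, 0.037 in TPM, and 1.56 to 1.75 when a library was left out. The counts called higher there were 24, 23 and 19 with offsets for GC content and length, offsets for length and TPM, against 18.3%, 26.3% and 5.18% of all genes. The counts called lower were 1 with DESeq2 size factors, the Wald test or a log2 fold change of at least 1, 2 with offsets for GC content, 8 with offsets for length, 11 with library totals, 13 with offsets for GC content and length, and 16 in TPM. Of all genes, 35.4% were called lower with DESeq2 size factors, 43.1% with offsets for GC content and 41.4% with offsets for length. Library totals gave 65.3%, offsets for GC content and length 42.7% and TPM 69.1%. No share of all genes is given for the Wald test or a log2 fold change of at least 1. The counts under these settings cannot be read as particular to the members. The causes were not tested.

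Some Huh-7 gene values turned sign. With library totals NDUFAF4 was -0.57, NDUFAF5 -0.71, NDUFAF6 -0.89 and NDUFAF7 -1.08. With offsets for GC content and length NDUFA5 was 1.19, NDUFS3 -0.17, NDUFS6 -0.26, NDUFS7 -0.31, NDUFS8 -0.47 and NDUFAF8 -0.69. With offsets for length NDUFA5 was 0.33, NDUFAF8 -0.039, NDUFB3 -0.082, NDUFV2 -0.22 and NDUFAF2 -0.45, and with offsets for GC content NDUFA5 was 0.68. In TPM NDUFS3 was -0.078, NDUFAF2 -0.36, NDUFV1 -0.38, NDUFV2 -0.44, NDUFAF7 -0.81, NDUFAF6 -0.96, NDUFAF5 -1.002 and NDUFAF4 -1.32.

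In HCC-LM3 the counts called higher were 3 with library totals, TPM or an adjusted p under 0.01, 2 with offsets for GC content, and 0 at a log2 fold change of at least 1. The counts called lower were 12 with library totals or TPM, 7 with offsets for length, 6 with offsets for GC content and length, and 0 at a log2 fold change of at least 1. Of all genes, 7.25% were called higher with library totals, 5.67% in TPM and 7.52% with offsets for GC content. The lower shares were 20.7% with library totals, 14.6% in TPM and 8.63% with offsets for GC content and length. No share of all genes is given for offsets for length or the stricter thresholds, so those counts cannot be read as particular to the members. Leaving out a library gave 2 to 15 higher and 2 to 3 lower, with the shares of all genes not counted. NDUFS1 turned to 0.22 with offsets for GC content and length.

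For the difference of the effects, the counts called higher were 1 (DESeq2 size factors, Wald test, log2 fold change of at least 1), 5 (library totals), 8 (length), 9 (GC content and length) and 11 (TPM), those called lower 22 (GC content and length), 23 (length) and 20 (TPM), and the medians -2.04 (DESeq2 size factors and Wald test), -0.66 (library totals), -0.36 (length), -0.26 (GC content and length) and -0.19 (TPM). For the WT lines, the counts called higher were 20 with library totals, 27 in TPM and 6 at a log2 fold change of at least 1, those called lower 15 in TPM and at a log2 fold change of at least 1, and the medians 0.089 with library totals, -0.070 with offsets for length, -0.56 with offsets for GC content and 0.49 in TPM. Shares of all genes for the difference of the effects stand above for GC content and length, length alone and TPM. Those for the WT lines stand above for library totals and TPM. No share is given for the other settings, so their counts cannot be read as particular to the members.

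Replicate numbers did not pair the libraries (correlations under 0.1, and not every library correlated best with its own number). The replicate block gave 6 higher and 2 lower in HCC-LM3, 38 and 4 in Huh-7 and 2 and 38 for the difference of the effects, with medians of -0.026, 1.67 and -1.62; NDUFAF7 in HCC-LM3 and NDUFAF5 in Huh-7 were not called with it. The block with offsets for GC content and length gave 2 called higher in HCC-LM3, 24 higher and 13 lower with a median of 0.33 in Huh-7, and 8 higher and 22 lower with a median of -0.26 for the difference. Under it NDUFA5 was 1.18, NDUFS3 -0.17, NDUFS6 -0.25, NDUFS7 -0.31, NDUFS8 -0.47 and NDUFAF8 -0.66 in Huh-7. The shares of all genes called with the block, with or without offsets, were not counted. The counts with the block thus cannot be read as particular to the members.

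The standard errors in Huh-7 were largest for NDUFAF7 (0.261), NDUFAF1 (0.241), NDUFAF6 (0.235) and NDUFAF8 (0.225), each under 10 CPM on average in Huh-7 WT, so a miss of the threshold there does not show that the groups were alike.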
